A study of Homo sapiens with 26 samples.

Results

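Cytochrome P450 enzymes are haem-containing monooxygenases that use electrons from NADPH to insert oxygen into drugs, steroids, fatty acids, vitamin D and other lipids. Most of them sit in the endoplasmic reticulum and take electrons from P450 oxidoreductase, while the mitochondrial members take them from ferredoxin. In liver and intestine many of their genes are driven by nuclear receptors, including HNF4α, PXR (NR1I2) and CAR (NR1I3), and those of family 1 by the aryl hydrocarbon receptor. The 9 genes described here, CYP1A1, CYP1B1, CYP2B6, CYP2J2, CYP2S1, CYP3A4, CYP3A5, CYP24A1 and CYP27A1, were taken by symbol. All 9 were found among the 62679 gene identifiers that the tables of 3 cell lines share.

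RNA of 3 established human pancreatic ductal adenocarcinoma lines was sequenced after the transcription factor gene HNF4A had been induced or repressed. Its isoforms start at a promoter P1 or a promoter P2. In Panc10.05 and BxPC3 doxycycline was given to cells made to express an isoform of either kind, P1-a2 or P2-a8. Their control, NC, carries the title GFP (Panc10.05) or EV (BxPC3). All 6 BxPC3 libraries received doxycycline at 500 ng/mL. In Panc10.05 the P1-a2 and NC cells received 25 ng/mL and the P2-a8 cells 12.5 ng/mL, so isoform and dose cannot be told apart there. AsPC-1, spelled ASPC1 in the labels, was treated by CRISPR interference, which lowers transcription from a targeted promoter. Its guides were sgP1E and sgP1J against P1 (group sgP1), sgP2D and sgP2G against P2 (sgP2), sgDual2 and sgDual3 against both (sgDual), and the control sgNC. Each group of Panc10.05 and BxPC3 and sgNC had 2 libraries, and each of the groups sgP1, sgP2 and sgDual had 4, which is 2 per guide. The labels do not say whether libraries of a group came from separate cultures, so p-values measure the spread between these libraries, which may be technical. P1-a2 and P2-a8 were compared with the same NC libraries, and the 3 guide groups with the same sgNC libraries.

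The Panc10.05 libraries held about 34618700 to 46827700 counts, those of BxPC3 about 26369200 to 37483800 and those of AsPC-1 about 26079400 to 50662100. Levels are counts-per-million values (CPM) with edgeR's TMM scaling of library sizes, made within each line. HNF4A averaged 0.149 CPM in Panc10.05 NC, 11.8 under P1-a2 and 37.6 under P2-a8, and in BxPC3 0.771, 10.7 and 13.4. In AsPC-1 it averaged 213 CPM with sgNC, 129 with sgP1, 86.5 with sgP2 and 7.99 with sgDual. The sgDual libraries were uneven, at 3.19 (sgDual2) and 4.83 CPM (sgDual3) in replicate 1 and 10.3 and 13.6 in replicate 2. The fall with sgDual passed edgeR's quasi-likelihood test (adjusted p = 6.25e-06), while sgP1 (adjusted p = 0.615) and sgP2 (adjusted p = 0.0751) did not differ from sgNC past the threshold of 0.05. DESeq2 called the lower level with sgP2 and not that with sgP1. The summed level of 5 epithelial markers lay between 4681 and 14446 CPM in every group, and 3 of 4 hepatocyte markers in Panc10.05 and BxPC3 and all 4 in AsPC-1 stayed below 1 CPM in every group. The other was CPS1, a urea cycle enzyme, at 4.04 CPM in Panc10.05 NC, 0.25 under P1-a2 and 0.672 under P2-a8, and at 31.4, 21.6 and 29.3 CPM in BxPC3. Its part in the results was not tested. The summed level of the 4 hepatocyte markers lay between 0.308 and 4.07 CPM over the groups of Panc10.05, between 21.7 and 31.4 in BxPC3 and between 0.325 and 0.61 in AsPC-1, and TTR was at 0 in every library. The summed levels of 4 fibroblast markers (0.991 to 12.9 CPM), 2 leukocyte markers (1.04 to 8.93 CPM) and 2 endothelial markers (0.028 to 5.26 CPM) were low in every group.

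Promoter windows of 7 of the 9 genes were in the RefSeq table of GRCh38.p14, and CYP1B1 and CYP24A1 were not. The 5 sequences below are shown because CYP1A1, CYP2B6 and CYP2S1 carry most of the calls that follow, and because CYP3A4 and CYP3A5 have similar sequences and unlike levels. Each is the 250 bases before the RefSeq start, 5′ to 3′ on the strand of the gene. Capitals mark a match to 1 of 3 motifs searched on both strands. The gene positions given further on come from GENCODE, whose outermost starts lie further upstream, so all 5 windows reach into those positions. The motifs were the HNF4 site CAAAGTCCA, the dioxin response element core GCGTG and the nuclear receptor half-site AGGTCA. The windows are chr15:74725529-74725778 (minus) for CYP1A1, chr19:40991032-40991281 (plus) for CYP2B6, chr19:41192969-41193218 (plus) for CYP2S1, chr7:99784185-99784434 (minus) for CYP3A4 and chr7:99679997-99680246 (minus) for CYP3A5.
CYP1A1: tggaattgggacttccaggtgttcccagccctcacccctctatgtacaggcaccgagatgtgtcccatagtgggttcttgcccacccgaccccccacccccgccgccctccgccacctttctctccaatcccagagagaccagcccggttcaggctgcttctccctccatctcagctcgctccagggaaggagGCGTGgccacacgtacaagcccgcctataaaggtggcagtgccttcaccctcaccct
CYP2B6: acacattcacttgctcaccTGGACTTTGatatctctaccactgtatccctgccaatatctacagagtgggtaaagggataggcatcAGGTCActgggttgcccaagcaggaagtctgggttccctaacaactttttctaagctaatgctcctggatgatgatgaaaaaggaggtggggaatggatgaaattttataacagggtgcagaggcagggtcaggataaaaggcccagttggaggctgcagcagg
CYP2S1: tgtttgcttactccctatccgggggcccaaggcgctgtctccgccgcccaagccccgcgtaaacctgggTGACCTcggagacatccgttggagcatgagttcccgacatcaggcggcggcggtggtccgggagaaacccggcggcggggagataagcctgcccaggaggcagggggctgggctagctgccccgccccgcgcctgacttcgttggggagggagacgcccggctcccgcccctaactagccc
CYP3A4: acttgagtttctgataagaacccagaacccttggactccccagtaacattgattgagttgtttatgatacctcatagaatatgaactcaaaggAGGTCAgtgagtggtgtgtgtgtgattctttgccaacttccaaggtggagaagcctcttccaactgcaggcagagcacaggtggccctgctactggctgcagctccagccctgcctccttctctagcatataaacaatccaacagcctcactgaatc
CYP3A5: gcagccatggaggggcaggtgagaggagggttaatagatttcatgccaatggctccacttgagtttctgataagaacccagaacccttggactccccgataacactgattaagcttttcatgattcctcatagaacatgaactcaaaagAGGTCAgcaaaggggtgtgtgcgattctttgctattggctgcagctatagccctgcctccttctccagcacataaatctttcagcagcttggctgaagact

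CYP2B6 was the 1 member window with the HNF4 site, on the minus strand at position -231 from the start, and it also held AGGTCA at -164. GCGTG was found in CYP1A1 at -57 and in CYP2J2 at -134. AGGTCA was found in CYP2S1 at -181, CYP3A4 at -157 and CYP3A5 at -101, and the window of CYP27A1 held none of the 3. Of 35116 windows of 300 bases in the table, 0.4% held the HNF4 site, 36.5% GCGTG and 13.8% AGGTCA. In a global alignment, the windows of CYP3A4 and CYP3A5 matched at 207 of 241 aligned bases (85.9%), while every other pair matched at 46.5% to 60.2%. A match of letters is a description of the sequence and not evidence of binding.

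In the control libraries CYP2S1 led in all 3 lines when levels were set per kb of annotated exon. In Panc10.05 NC it stood at 3.29 ± 0.035 CPM per kb (SD, n = 2), followed by CYP2J2 at 1.86 ± 0.041, CYP1B1 at 0.434 ± 0.02 and CYP3A5 at 0.301 ± 0.023. CYP24A1, CYP27A1 and CYP1A1 followed between 0.0497 and 0.109 CPM per kb, and the libraries of CYP1A1 overlapped those of both others. In BxPC3 NC the order was CYP2S1 at 71.7 ± 2.15, CYP1B1 at 5.22 ± 0.91, CYP3A5 at 1.6 ± 0.12, CYP24A1 at 1.06 ± 0.14 and CYP2J2 at 1 ± 0.029, and the last 2 overlapped. CYP1A1 stood at 0.336 ± 0.014 CPM per kb there, above CYP3A4, CYP2B6 and CYP27A1, which lay between 0.115 and 0.2 and overlapped each other. In AsPC-1 sgNC CYP2S1 stood at 46.7 ± 5.4 and CYP3A5 at 19.3 ± 3.54 CPM per kb, followed by CYP1B1 at 1.33 ± 0.0013, CYP2B6 at 0.649 ± 0.16, CYP1A1 at 0.246 ± 0.031 and CYP27A1 at 0.176 ± 0.051. CYP3A4, CYP24A1 and CYP2J2 were lowest there, between 0.0212 and 0.0559 CPM per kb, and overlapped. The exon length is the union over all annotated transcripts, 6759 bases for CYP3A5, so its level per kb is low for its counts.

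**Figure D1:**
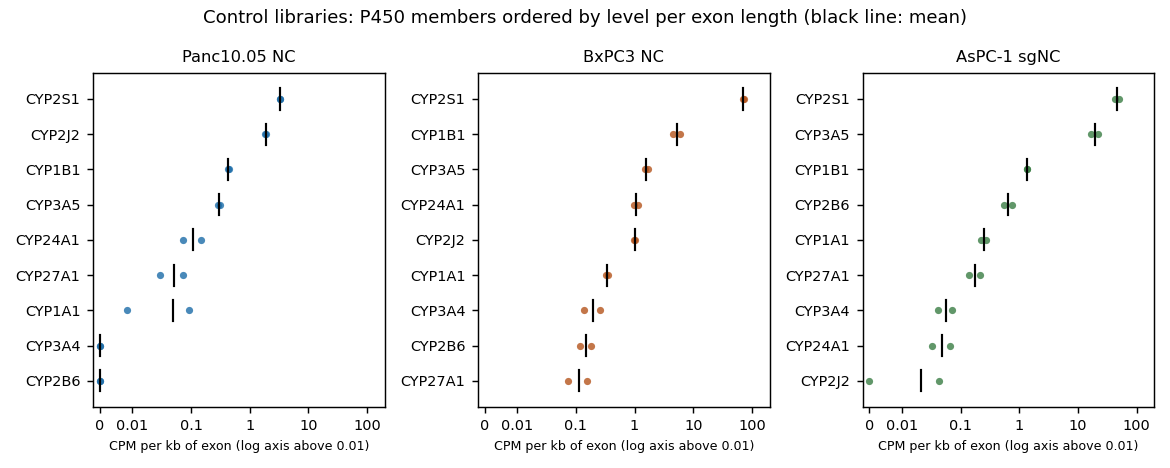
Level of each P450 gene in the control libraries, in CPM per kb of annotated exon (log axis above 0.01), with genes ordered by their mean in each line; points are libraries and the black line is the mean. CYP2S1 is highest in all 3 lines, and CYP2B6 and CYP3A4 are at 0 in the 2 Panc10.05 control libraries.

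CYP2B6 and CYP3A4 stayed undetected in all of Panc10.05. There CYP2B6 had at most 1 count and CYP3A4 at most 2 in any of the 6 libraries, with either isoform or without. A gene was taken as undetected in a group when none of its libraries had more than 3 counts, which is 0.0641 to 0.0869 CPM in Panc10.05, 0.0811 to 0.112 in BxPC3 and 0.0585 to 0.116 in AsPC-1. CYP2J2 in AsPC-1 was just above this, with 0 to 6 counts in 14 libraries, and CYP3A4 there had 1 to 11. CYP27A1 had 3 to 9 counts in the Panc10.05 libraries. These 5 gene and line pairs were too low for the test, and a fit without the filter on low counts called none of them in any comparison (edgeR, lowest unadjusted p = 0.0899). The remaining 6 genes in Panc10.05, 9 in BxPC3 and 7 in AsPC-1 were tested.

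**Figure D2:**
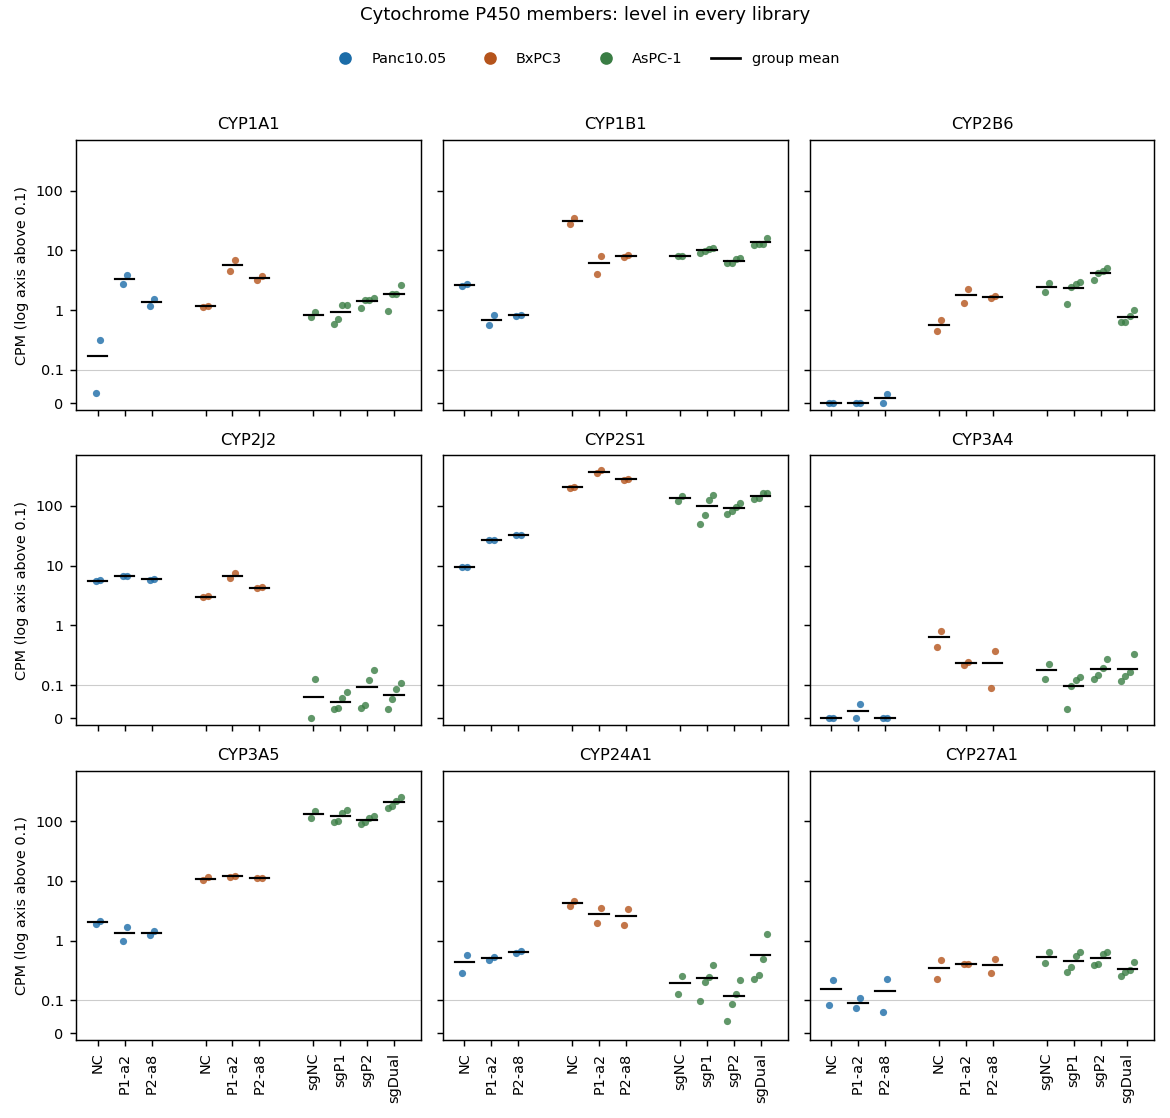
Level of each P450 gene in every library, in CPM (linear from 0 to 0.1 and log above), by group and cell line; points are libraries, black lines are group means, and the grey line marks 0.1 CPM. CYP1A1 is higher and CYP1B1 lower in the induced groups of Panc10.05 and BxPC3, CYP2B6 is lowest in AsPC-1 with sgDual, and CYP3A5 stands at 88.7 to 255 CPM in AsPC-1 against 10.2 to 12.2 CPM in BxPC3.

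Under P1-a2 in Panc10.05, 2 of 6 members tested were higher than NC, CYP1A1 and CYP2S1, against 31.5% of all 17247 genes tested, and 2 were lower, CYP1B1 and CYP3A5, against 30.5%. The same members were called under P2-a8, where 23.7% of all genes were higher and 22.5% lower. In BxPC3, P1-a2 raised 4 of 9 members (CYP1A1, CYP2B6, CYP2J2 and CYP2S1) against 17.1% of all 17635 genes, and lowered 1 (CYP1B1) against 14.9%. P2-a8 raised 3 of 9 (CYP1A1, CYP2B6 and CYP2S1) against 4.3% and lowered CYP1B1 against 2.69%. The median log2 fold change of the members tested was 0.27 and 0.34 in Panc10.05 and 0.19 and 0.12 in BxPC3, for P1-a2 and P2-a8. Over all genes tested the same medians were 0.0229 and 0.000505 in Panc10.05 and -0.0118 and 0.0129 in BxPC3. In bulk RNA, fewer cells that express a gene and less RNA per cell cannot be told apart.

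In AsPC-1, 0 of 7 members differed from sgNC with sgP1, where 0.1% of 16992 genes were higher and 0.165% lower, and 0 with sgP2, where the shares were 1.66% and 1.76%. With each target 1 member had an unadjusted p under 0.05 by edgeR, CYP1B1 with sgP1 and CYP2B6 with sgP2, and DESeq2 called 0 with either. The share of all genes with such an unadjusted p is not given here. With sgDual 3 members were higher (CYP1A1, CYP1B1 and CYP3A5) against 17.8% of all genes, and 1 was lower (CYP2B6) against 17.8%. The median log2 fold change of the 7 members with sgDual was 0.66, against 0.00121 over all genes.

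**Figure D3:**
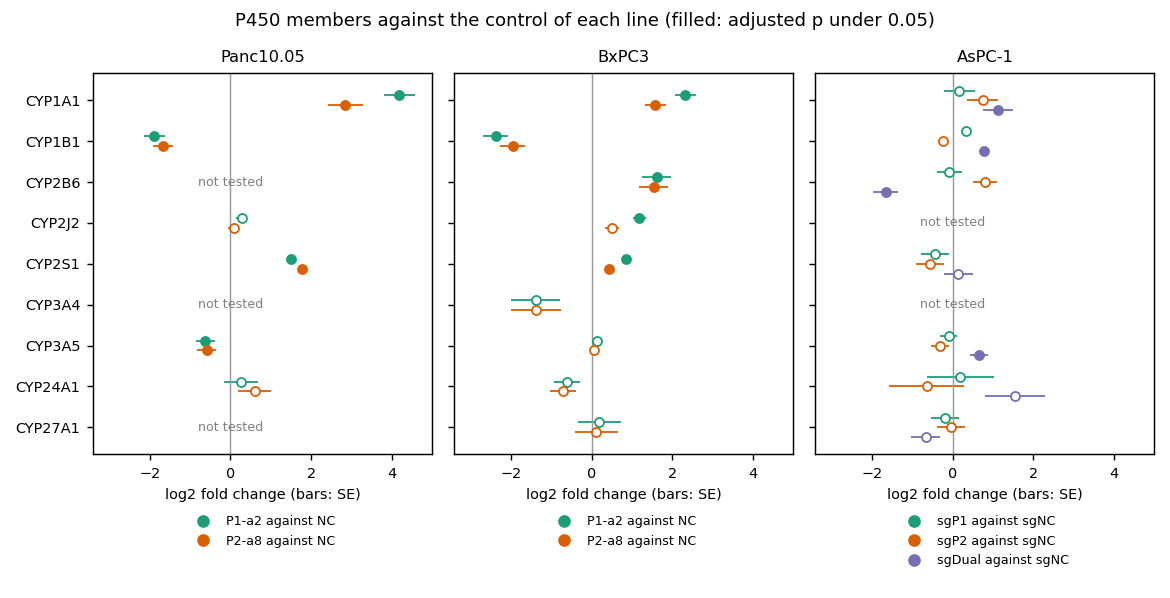
Log2 fold change of each P450 gene tested against the control of its line, with the standard error as a bar; filled points passed an adjusted p of 0.05, and genes too low to test are marked. CYP1B1 is lower than NC in both induced lines and higher than sgNC with sgDual, CYP2B6 is higher in BxPC3 and lower with sgDual, and CYP1A1 is higher in the induced groups of both lines and with sgDual.

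CYP1A1 (ENSG00000140465, chr15:74719542-74725610, minus strand) oxidises polycyclic aromatic compounds and is the classical target of the aryl hydrocarbon receptor. In Panc10.05 it was at 0.312 and 0.029 CPM in the NC libraries, which is 13 and 1 counts, at 2.75 and 3.96 under P1-a2, and at 1.15 and 1.55 under P2-a8. Every induced library was above both controls. CYP1A1 passed the filter on low counts there through the induced groups, where it was high. On the log2 scale CYP1A1 rose by 4.18 with P1-a2 (SE 0.38, edgeR adjusted p = 1.13e-10) and by 2.85 with P2-a8 (SE 0.44, adjusted p = 4.44e-06). The P1-a2 value ranged from 3.42 without NC replicate 2 to 6.71 without NC replicate 1, and the P2-a8 value from 2.08 to 5.39 likewise.

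In BxPC3 CYP1A1 was at 1.19 and 1.12 CPM in NC, 4.49 and 7.03 under P1-a2 and 3.23 and 3.67 under P2-a8, again without overlap. It rose by 2.32 with P1-a2 (SE 0.25, adjusted p = 4.57e-05) and by 1.58 with P2-a8 (SE 0.27, adjusted p = 0.00422), and the P2-a8 call was lost without NC replicate 2 (adjusted p = 0.0505). P1-a2 exceeded P2-a8 in both lines, with a log2 difference of 1.34 for Panc10.05 (SE 0.26, adjusted p = 0.000106) and of 0.74 for BxPC3 (SE 0.22, adjusted p = 0.0306). DESeq2 did not call the former (adjusted p = 0.216), and the latter was lost without P1-a2 replicate 2 (0.39, adjusted p = 0.299) or P2-a8 replicate 1 (adjusted p = 0.125).

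In AsPC-1 CYP1A1 was at 0.919 and 0.771 CPM with sgNC and at 1.89, 0.982, 2.69 and 1.85 with sgDual, where the lowest value belongs to sgDual2 replicate 2. It rose by 1.13 (SE 0.38, adjusted p = 0.0288) against sgNC and by 0.97 (SE 0.29, adjusted p = 0.0149) against sgP1, whose 4 libraries lay between 0.584 and 1.23 CPM. The first call was lost without either sgNC library (adjusted p = 0.116 and 0.153), without sgDual3 replicate 1 (adjusted p = 0.0714) and without guide sgDual3 (0.77, adjusted p = 0.178). The second was lost without sgDual3 replicate 1 (adjusted p = 0.0606), without guide sgDual3 (0.61, adjusted p = 0.2) and without guide sgP1J (0.6, adjusted p = 0.135), and without guide sgP1E the value was 1.53. Libraries of sgDual lay above those of sgNC and overlapped those of sgP1.

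CYP1B1 (ENSG00000138061, chr2:38066973-38109902, minus strand) hydroxylates oestrogens and polycyclic compounds and is found mainly outside the liver. In Panc10.05 it was at 2.52 and 2.69 CPM in NC, 0.565 and 0.826 under P1-a2 and 0.791 and 0.845 under P2-a8. In BxPC3 it was at 27.6 and 35.3 CPM in NC, 8.22 and 4.03 under P1-a2 and 7.84 and 8.51 under P2-a8. Induced libraries lay below the controls in both lines, with no overlap, and libraries of both isoforms overlapped each other. In Panc10.05 CYP1B1 fell by 1.88 on the log2 scale with P1-a2 (SE 0.26, edgeR adjusted p = 3e-08) and fell by 1.67 with P2-a8 (SE 0.25, adjusted p = 5.42e-07). In BxPC3 it fell by 2.38 with P1-a2 (SE 0.32, adjusted p = 0.00333) and fell by 1.95 with P2-a8 (SE 0.31, adjusted p = 0.0241). The last call was lost without any 1 of the P2-a8 or NC libraries of BxPC3 (adjusted p = 0.0685 to 0.252), with fold changes between -2.12 and -1.77.

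In AsPC-1 CYP1B1 was at 7.98 and 7.99 CPM with sgNC, 9.69, 10.6, 11 and 9.17 with sgP1, 7.08, 6.26, 7.4 and 6.24 with sgP2, and 13, 12.5, 16.3 and 12.9 with sgDual. All 4 sgDual libraries lay above every other library. Against sgNC it rose by 0.77 (SE 0.13, edgeR adjusted p = 0.000341), against sgP1 by 0.44 (SE 0.1, adjusted p = 0.00315) and against sgP2 by 1.02 (SE 0.1, adjusted p = 2.06e-06). It was also lower with sgP2 than with sgP1, a log2 difference of -0.58 (SE 0.1, adjusted p = 0.00559) that was lost without guide sgP2D (adjusted p = 0.053). CYP1B1 overlaps RMDN2 and CYP1B1-AS1 on the other strand and RMDN2-AS1 on its own, and the strand setting of the counting is not given in the sources used here, so reads of these genes may not have been separated. CYP1B1-AS1 did not exceed 12 counts, and RMDN2 lay between 1.44 and 6.77 CPM.

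CYP2B6 (ENSG00000197408, chr19:40991250-41018398, plus strand) metabolises drugs such as bupropion and cyclophosphamide and is a target of CAR and PXR. In BxPC3 it was at 0.446 and 0.683 CPM in NC, 2.29 and 1.3 under P1-a2 and 1.74 and 1.62 under P2-a8, with every induced library above both controls. CYP2B6 rose by 1.62 with P1-a2 (SE 0.36, edgeR adjusted p = 0.00514) and by 1.54 with P2-a8 (SE 0.36, adjusted p = 0.0262). The P2-a8 call was lost without P2-a8 replicate 1 (adjusted p = 0.068), NC replicate 1 (adjusted p = 0.153) or NC replicate 2 (adjusted p = 0.0766).

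In AsPC-1 CYP2B6 was at 2.03 and 2.86 CPM with sgNC, 1.25, 2.41, 2.71 and 3 with sgP1, 4.25, 5.12, 3.15 and 4.55 with sgP2, and 0.631, 0.636, 0.806 and 1.01 with sgDual. The sgDual libraries were the lowest 4 of the line and the sgP2 libraries the highest 4. Replicate 2 exceeded replicate 1 within every guide. The log2 fold change of CYP2B6 with sgDual was -1.66 against sgNC (SE 0.32, edgeR adjusted p = 0.00101), -1.58 against sgP1 (SE 0.27, adjusted p = 0.000386) and -2.46 against sgP2 (SE 0.27, adjusted p = 4.2e-06). These 3 calls kept their direction and stayed past the threshold under every alternative run. The sgP2 group stood 0.8 (SE 0.3, adjusted p = 0.169) above sgNC and 0.88 (SE 0.24, adjusted p = 0.0519) above sgP1 on the log2 scale. The latter passed in a fit with guides as groups (adjusted p = 0.00766), with DESeq2 (adjusted p = 0.0141), with the replicate block (adjusted p = 0.02), without the filter (adjusted p = 0.0361) and without guide sgP1J (1.26, adjusted p = 0.0169). It was 0.58 without guide sgP1E, and the adjusted p reached 0.301 without guide sgP2D. CYP2B6 shares sequence with its neighbour pseudogene CYP2B7P, so reads may be split between them. CYP2B7P had 6 and 14 counts in BxPC3 NC, 87 and 79 under P1-a2 and 36 and 48 under P2-a8, and 1 to 13 in AsPC-1.

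CYP3A5 (ENSG00000106258, chr7:99648194-99680026, minus strand) and CYP3A4 (ENSG00000160868, chr7:99756960-99784265, minus strand) oxidise a wide range of drugs and steroids, CYP3A4 mainly in liver and intestine and CYP3A5 also outside them. Their sequences are close enough that reads could be assigned to either, and the values below carry that uncertainty. In AsPC-1 CYP3A5 was at 114 and 148 CPM with sgNC, 99.2, 138, 97 and 155 with sgP1, 96.9, 123, 88.7 and 113 with sgP2, and 167, 181, 221 and 255 with sgDual. Every sgDual library was above every other library of the line. Within each guide replicate 2 was above replicate 1, a shift that the main fit does not include. CYP3A5 rose with sgDual by 0.97 (SE 0.18, edgeR adjusted p = 0.00071) against sgP2, by 0.75 (SE 0.18, adjusted p = 0.00507) against sgP1 and by 0.66 (SE 0.22, adjusted p = 0.0361) against sgNC. The last call was lost under 6 alternatives, among them the fit without the low-count filter (adjusted p = 0.122), without sgNC replicate 1 (0.48, adjusted p = 0.297), without sgNC replicate 2 (adjusted p = 0.0518) and without either sgDual3 library (adjusted p = 0.0668 and 0.0798). Without guide sgDual3 both the value against sgNC (0.42, adjusted p = 0.209) and that against sgP1 (0.51, adjusted p = 0.076) missed the threshold.

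In Panc10.05 CYP3A5 was at 1.92 and 2.14 CPM in NC, 1.67 and 1 under P1-a2 and 1.43 and 1.24 under P2-a8. All 4 induced libraries lay below both controls. CYP3A5 fell by 0.62 with P1-a2 (SE 0.24, edgeR adjusted p = 0.0257) and fell by 0.59 with P2-a8 (SE 0.24, adjusted p = 0.0442). DESeq2 called neither (adjusted p = 0.115 and 0.159). The P1-a2 value was -1.01 without P1-a2 replicate 1 and -0.28 without P1-a2 replicate 2 (adjusted p = 0.418), and it also missed without NC replicate 2 (adjusted p = 0.111), and the P2-a8 call was lost in 7 of 10 alternatives (adjusted p up to 0.188). In BxPC3 CYP3A5 stayed between 10.2 and 12.2 CPM in all 6 libraries and no comparison passed. CYP3A4 in BxPC3 was at 0.818 and 0.437 CPM in NC, 0.22 and 0.243 under P1-a2 and 0.372 and 0.0919 under P2-a8, which is 3 to 22 counts. Its log2 fold changes of -1.39 (SE 0.62, adjusted p = 0.112) and -1.37 (SE 0.62, adjusted p = 0.238) did not pass.

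CYP2S1 (ENSG00000167600, chr19:41193049-41207539, plus strand), an epithelial P450 of skin, airway and gut that acts on retinoids and oxidised lipids, had the most counts of the members in Panc10.05 and BxPC3. In Panc10.05 it was at 9.39 and 9.53 CPM in NC, 27 and 26.8 under P1-a2 and 32 and 32.5 under P2-a8. It rose by 1.51 (SE 0.09, edgeR adjusted p = 1.87e-18) and 1.77 (SE 0.09, adjusted p = 3.41e-20), and P1-a2 minus P2-a8 was -0.26 (SE 0.08, adjusted p = 0.00651). In BxPC3 it was at 210 and 202 CPM in NC, 351 and 399 under P1-a2 and 273 and 285 under P2-a8. The order of the isoforms was the other way round there, with a rise of 0.86 (SE 0.07, adjusted p = 3.54e-06) under P1-a2, 0.44 (SE 0.07, adjusted p = 0.00235) under P2-a8, and P1-a2 0.43 above P2-a8 (SE 0.07, adjusted p = 0.00113). All of these calls held under every alternative run.

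In AsPC-1 CYP2S1 differed between the 2 guides of P1. It was at 123 and 145 CPM with sgNC, and within sgP1 at 49.1 and 69.4 with sgP1E against 126 and 152 with sgP1J. With sgP2 it lay between 74.1 and 110 CPM and with sgDual between 129 and 165. Replicate 2 was above replicate 1 within every guide. No comparison between groups passed. The difference closest to the threshold, sgDual against sgP2 (0.7, SE 0.29, edgeR adjusted p = 0.0711), was called by DESeq2 (adjusted p = 0.0415) and in a fit of these 2 groups alone (adjusted p = 0.0018). Between the guides of P1, sgP1E minus sgP1J was -1.23 (SE 0.15, adjusted p = 0.00017), the 1 member of 7 that differed, against 14.5% of all genes. No member differed between sgP2D and sgP2G, where 1.69% of all genes did, nor between sgDual2 and sgDual3, where 0.883% did, and CYP2S1 had an unadjusted p under 0.05 in both. So did CYP1A1 between sgDual2 and sgDual3 (-0.65, edgeR unadjusted p = 0.0377). Between the guides of P1, CYP1A1, CYP2B6 and CYP27A1 had one too (edgeR unadjusted p = 0.018, 0.0323 and 0.026). In a fit with guides as groups the log2 fold change of CYP2S1 against sgNC was -0.57 with sgP1 (edgeR adjusted p = 0.0242) and -0.57 with sgP2 (adjusted p = 0.00983), and sgDual was 0.7 above sgP1 and sgP2 (adjusted p = 0.000162 and 0.000107). These p-values measure the spread between libraries of a guide and do not cover the difference between guides. Of the guides of P1, only sgP1E lay below sgNC. The libraries of sgP1J overlapped those of sgNC, so the sgP1 value does not describe both guides. With sgP2 every library lay below both sgNC libraries. HNF4A itself was at 144 and 146 CPM with sgP1E and 118 and 109 with sgP1J.

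CYP2J2 (ENSG00000134716, chr1:59893308-59926790, minus strand) turns arachidonic acid into epoxyeicosatrienoic acids. In BxPC3 it was at 2.94 and 3.06 CPM in NC, 6.12 and 7.54 under P1-a2 and 4.32 and 4.16 under P2-a8, 3 groups without overlap. It rose by 1.19 with P1-a2 (SE 0.17, edgeR adjusted p = 0.000278), and P1-a2 was 0.69 above P2-a8 (SE 0.16, adjusted p = 0.01), a call that was lost without P1-a2 replicate 2 (0.54, adjusted p = 0.0909). The P2-a8 value of 0.5 (SE 0.17, adjusted p = 0.127) did not pass. In Panc10.05 CYP2J2 was at 5.48 and 5.65 CPM in NC, 6.75 and 6.72 under P1-a2 and 5.96 and 5.78 under P2-a8, and the largest of these differences, 0.28 for P1-a2 (SE 0.13, adjusted p = 0.0647), missed the threshold.

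CYP24A1 (ENSG00000019186, chr20:54153449-54173973, minus strand) breaks down the active form of vitamin D in mitochondria and is a classical target of the vitamin D receptor. In AsPC-1 it had 1 to 44 counts per library, at 0.127 and 0.257 CPM with sgNC, 0.0975 to 0.387 with sgP1, 0.0387 to 0.216 with sgP2, and 0.23, 1.27, 0.269 and 0.49 with sgDual. The value of 1.27 belongs to sgDual2 replicate 2. CYP24A1 passed the filter on low counts through sgDual, the group where it was high. CYP24A1 rose by 2.19 with sgDual against sgP2 (SE 0.64, edgeR adjusted p = 0.0111), which was 1.42 without sgDual2 replicate 2, and the call was lost without guide sgP2G (adjusted p = 0.091). The value against sgP1, 1.35 (SE 0.55, adjusted p = 0.0665), missed the threshold and was 0.59 without sgDual2 replicate 2. It passed with the replicate block (adjusted p = 0.0158), as did the value against sgNC (adjusted p = 0.0294). In BxPC3 CYP24A1 was at 3.83 and 4.59 CPM in NC, 1.98 and 3.54 under P1-a2 and 1.8 and 3.4 under P2-a8, and in Panc10.05 all libraries lay between 0.288 and 0.676 CPM. No comparison of these lines passed, though with the replicate block CYP24A1 was lower than NC in BxPC3 under both isoforms (adjusted p = 0.0171 and 0.0192).

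CYP27A1 (ENSG00000135929, chr2:218781749-218815293, plus strand), the mitochondrial sterol 27-hydroxylase of bile acid synthesis, was low everywhere. It lay between 0.0641 and 0.225 CPM in Panc10.05, between 0.223 and 0.49 in BxPC3 and between 0.258 and 0.637 in AsPC-1, and groups overlapped in each induced line. No comparison passed.

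Between the isoforms, 1 of 6 members was higher with P1-a2 than with P2-a8 in Panc10.05 (CYP1A1, against 22.2% of all genes) and 1 was lower (CYP2S1, against 24.7%). In BxPC3 3 of 9 were higher (CYP1A1, CYP2J2 and CYP2S1, against 11.6%) and 0 lower (against 10.8%). Among the guide groups, 1 of 7 was lower with sgP2 than with sgP1 (CYP1B1, against 2.13% of all genes) and 0 higher (against 2.17%). Against sgP1, sgDual had 3 higher (CYP1A1, CYP1B1 and CYP3A5, against 18.6%) and 1 lower (CYP2B6, against 19.7%). Against sgP2 it had 3 higher (CYP1B1, CYP3A5 and CYP24A1, against 22.8%) and 1 lower (CYP2B6, against 23.5%).

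The responses of Panc10.05 and BxPC3 were compared in a joint fit, for the 6 members tested in both lines. For P1-a2 against NC, 4 of 6 differed, against 36.4% of 19372 genes. The change of CYP1A1 was 1.86 larger in Panc10.05 (SE 0.62, edgeR adjusted p = 0.0251) and that of CYP2S1 0.66 larger (SE 0.1, adjusted p = 1.21e-05). The differences for CYP2J2, -0.9 (SE 0.21, adjusted p = 0.00143), and for CYP3A5, -0.75 (SE 0.26, adjusted p = 0.0244), had the other sign. For P2-a8 against NC CYP2S1 was the 1 member that differed (1.33, SE 0.1, adjusted p = 1.02e-09), against 23.5% of all genes, and for P1-a2 against P2-a8 it was again CYP2S1 (-0.68, SE 0.09, adjusted p = 9.72e-06), against 22.3%. The CYP1A1 difference was lost without Panc10.05 P1-a2 replicate 2 (adjusted p = 0.0689) or NC replicate 2 (1.09, adjusted p = 0.155), and without either BxPC3 NC library (adjusted p = 0.0699 and 0.0705), and it was 4.38 without Panc10.05 NC replicate 1. That of CYP3A5 was -1.13 without Panc10.05 P1-a2 replicate 1 and was lost without Panc10.05 P1-a2 replicate 2 (-0.42, adjusted p = 0.256), Panc10.05 NC replicate 2 (adjusted p = 0.0822) or BxPC3 NC replicate 1 (adjusted p = 0.067). Line, dose, control construct and sequencing project cannot be told apart in these differences.

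The head-to-head neighbour of CYP1A1 on chromosome 15 is CYP1A2 (chr15:74748844-74756202, plus strand), the main caffeine-metabolising P450 of liver. It had 2 and 0 counts in BxPC3 NC, 354 and 480 under P1-a2 (11.1 and 13 CPM) and 288 and 241 under P2-a8 (8.24 and 7.38 CPM). The ratio to NC was 385 for P1-a2 (95% exact counting interval 106 to 3180) and 248 for P2-a8 (68.4 to 2056), intervals that cover counting error only. In Panc10.05 CYP1A2 had 0 counts in both NC libraries, 21 and 27 under P1-a2 and 92 and 81 under P2-a8, which is at least 7.08-fold and at least 26.7-fold higher than a floor of 3 counts per library. It was thus higher under P2-a8 than P1-a2 in Panc10.05 (log2 difference of P1-a2 minus P2-a8 -1.9, SE 0.29, edgeR adjusted p = 6.67e-07) and lower in BxPC3 (0.63, SE 0.16, adjusted p = 0.0174). In AsPC-1 it had 0 counts in all 14 libraries.

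Of the 48 other P450 genes, 15 were tested in Panc10.05, 22 in BxPC3 and 21 in AsPC-1. Under P1-a2 4 rose and 5 fell in Panc10.05 (median log2 fold change -0.1) and 4 rose and 4 fell in BxPC3 (0.17), and under P2-a8 4 rose and 1 fell (0.12) and 2 rose and 0 fell (-0.02). With sgDual against sgNC 5 rose and 2 fell (0.04), with sgP2 1 rose and 0 fell (0.29), and with sgP1 0 did either (0.06). Over all genes tested, 31.5% rose and 30.5% fell under P1-a2 in Panc10.05, and 17.1% and 14.9% in BxPC3. Under P2-a8 the shares were 23.7% and 22.5%, and 4.3% and 2.69%. With sgDual they were 17.8% and 17.8%, with sgP2 1.66% and 1.76%, and with sgP1 0.1% and 0.165%. The same shares apply to the lists that follow. Among the other P450 genes the largest change in AsPC-1 was in CYP26B1, which inactivates retinoic acid. It was at 0.444 and 0.771 CPM with sgNC and at 8.78, 15.6, 4.95 and 11.1 with sgDual, and the log2 change was 4.05 (SE 0.45, edgeR adjusted p = 1.88e-05). In Panc10.05 CYP26B1 was at 3.03 and 2.52 CPM in NC and 7.06 and 7.02 under P1-a2 (1.34, SE 0.15, adjusted p = 5.73e-10). The leukotriene and fatty acid hydroxylases CYP4F11 and CYP4F12 fell in Panc10.05 under P1-a2, from a mean of 14.4 to 5.55 and from 2.24 to 0.233 CPM.

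Of 18 regulators of P450 transcription (AHRR among them, which is also 1 of the receptor targets further on), 12, 16 and 15 were tested in Panc10.05, BxPC3 and AsPC-1. NR1I2, which encodes PXR, had 9 and 6 counts in BxPC3 NC (0.335 and 0.164 CPM), and was at 13 and 17.6 CPM under P1-a2 and 8.87 and 10.6 under P2-a8. Its log2 fold changes were 6 (SE 0.29, edgeR adjusted p = 1.37e-07) and 5.34 (SE 0.3, adjusted p = 2.12e-06). In AsPC-1 NR1I2 was at 81.3 and 93 CPM with sgNC and 12.8, 17.7, 14.9 and 16.6 with sgDual, and the log2 change was -2.49 (SE 0.21, adjusted p = 4.18e-06), and in Panc10.05 it had 0 counts in all 6 libraries. NR1I3, which encodes CAR, had 2 counts over both Panc10.05 NC libraries, 838 under P1-a2 (ratio 376, interval 104 to 3107) and 72 under P2-a8 (33.3, interval 8.89 to 280). In BxPC3 it had 3 counts in NC, 253 under P1-a2 (77.8, interval 26.3 to 380) and 3 under P2-a8, and in AsPC-1 at most 1 count in any library.

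Under P1-a2 6 regulators rose and 5 fell in Panc10.05 (median -0.21) and 5 rose and 2 fell in BxPC3 (0.04), under P2-a8 5 rose and 3 fell (0.14) and 4 rose and 0 fell (-0.01). With sgDual 4 rose and 4 fell (-0.24), and with sgP1 (-0.06) and sgP2 (-0.21) 0 of 15 passed. Of all genes, 31.5% rose and 30.5% fell under P1-a2 in Panc10.05, and 17.8% and 17.8% with sgDual. Those that fell with sgDual included CEBPA, a liver-enriched transcription factor, from 34.1 to 9.39 CPM (-1.86, SE 0.17, edgeR adjusted p = 2.76e-06). NR0B2, which encodes the corepressor SHP, had 0 counts in BxPC3 NC and 198 over both P1-a2 libraries, at least 29.7-fold higher than the floor.

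**Figure D4:**
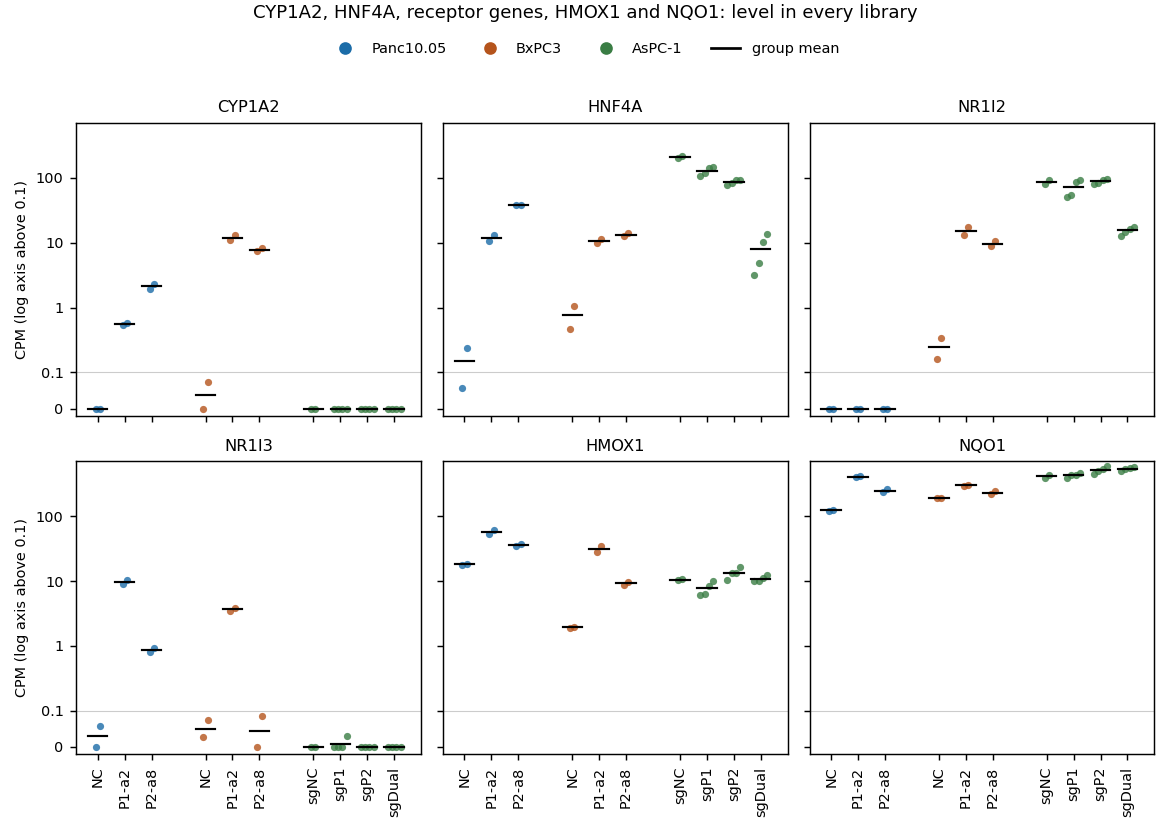
Level of CYP1A2, HNF4A, NR1I2 (PXR), NR1I3 (CAR), HMOX1 and NQO1 in every library, in CPM (linear from 0 to 0.1 and log above), by group and cell line; points are libraries and black lines are group means. CYP1A2 appears in the induced groups of Panc10.05 and BxPC3 and is at 0 in AsPC-1, NR1I2 appears in BxPC3 and not in Panc10.05, and NR1I3 is highest under P1-a2 in both.

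Other targets of the aryl hydrocarbon receptor did not move as CYP1A1 did in every case. Of 5, 2 were tested in Panc10.05, where NQO1, a quinone reductase, rose from 124 to 410 CPM under P1-a2 (1.72, SE 0.06, edgeR adjusted p = 8.17e-26) and to 247 CPM under P2-a8 (0.99, SE 0.06, adjusted p = 3.19e-17), while TIPARP, a feedback repressor of the receptor, fell from 147 to 101 and 112 CPM (list medians 0.59 and 0.3). In BxPC3 1 of 5 rose under P1-a2, NQO1, and 1 fell, the aldehyde dehydrogenase gene ALDH3A1 (median 0.17), and 1 rose under P2-a8 (0.05). With sgDual 3 of 5 rose, ALDH3A1 from 44.6 to 152 CPM (1.77, SE 0.33, adjusted p = 0.00145), TIPARP and NQO1 (median 0.38), and with sgP1 (0.04) and sgP2 (0.34) 0 did. Of all genes, 17.8% rose with sgDual.

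All 8 electron donor genes and all 10 genes of haem synthesis and breakdown were tested in each line. Of the donors, 4 rose and 2 fell under P1-a2 in Panc10.05 (median 0.27) and 3 rose and 1 fell in BxPC3 (0.26), under P2-a8 3 rose and 1 fell (0.14) and 2 rose and 0 fell (0.14), and with sgDual 0 rose and 4 fell (-0.16). None passed with sgP1 (-0.03) or sgP2 (-0.01). Of all genes, 31.5% rose and 30.5% fell under P1-a2 in Panc10.05, and 17.8% fell with sgDual. POR, which encodes the P450 oxidoreductase, rose in BxPC3 under P1-a2 from 137 to 216 CPM (0.65, SE 0.06, edgeR adjusted p = 2.16e-05) and fell with sgDual in AsPC-1 from 351 to 275 CPM (-0.35, SE 0.1, adjusted p = 0.0116). FDXR, the reductase that serves mitochondrial P450 enzymes, fell under P1-a2 in Panc10.05 from 5.79 to 2.5 CPM and in BxPC3 from 30.7 to 19.9 CPM.

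Of the haem genes, 4 rose and 5 fell under P1-a2 in Panc10.05 (median -0.15) and 4 rose and 2 fell in BxPC3 (0.18), under P2-a8 2 rose and 2 fell (-0.03) and 1 rose and 1 fell (0.13), and with sgDual 3 rose and 2 fell (0.06), with 0 for sgP1 (0.05) and sgP2 (-0.04). Of all genes, 31.5% rose and 30.5% fell under P1-a2 in Panc10.05, and 17.1% and 14.9% in BxPC3. HMOX1, the inducible haem oxygenase, was at 1.93 CPM in BxPC3 NC, 31.4 under P1-a2 (4.03, SE 0.15, edgeR adjusted p = 1.26e-08) and 9.22 under P2-a8 (2.26, SE 0.15, adjusted p = 6.16e-06). In Panc10.05 HMOX1 was at 18.1, 57.9 and 36.5 CPM (1.68, SE 0.08, adjusted p = 7.38e-22, and 1.02, SE 0.08, adjusted p = 6.06e-14). ALAS1, the first enzyme of haem synthesis, rose in BxPC3 under P1-a2 from 55.3 to 85.5 CPM (0.63, SE 0.07, adjusted p = 4.27e-05). Over these 5 lists, which hold 58 genes tested in AsPC-1, 9 had an unadjusted p under 0.05 by edgeR with sgP1 and 16 with sgP2. The share of all genes with such a p is not given here, so these counts cannot be read as a trait of the lists. DESeq2 called 0 of the 58 with sgP1 and 4 with sgP2, ALDH3A1, NQO1, CYB5B and CYP4F11.

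For the 5 members tested in all 3 lines, the genes with the most similar pattern were sought by Pearson correlation over 26 libraries, after centring each line on its mean. The libraries share lines, inductions and depth, so these are descriptions. For CYP1A1 they were ANGPTL4 (r = 0.937), TOB2 (0.899) and EGLN1 (0.899), and for CYP1B1 NTHL1 (0.864), CKB (0.841) and SLCO3A1 (0.837). For CYP2S1 they were MOGS (0.917), CLCN5 (0.906) and the keratin gene KRT18 (0.888), and for CYP3A5 WDR48 (0.867), TNFRSF11B (0.861) and PIK3C3 (0.86). For CYP24A1 they were GALT (0.801), VPS41 (0.793) and CLDN3 (0.784).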

How the data were processed

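RNA of 26 libraries was sequenced as paired ends on a NovaSeq instrument after a directional poly(A) preparation, per the labels' protocols. The authors deposited unnormalised read counts for each gene, in 1 table per cell line. The submitters' processing notes name GRCh38, STAR 2.7.9a, cutadapt 1.16, featureCounts 1.6.3 and DESeq2 1.36.0. The annotation and the strand setting are not given in the sources used here. The tables hold 62703, 62703 and 62754 identifiers (Panc10.05, BxPC3, AsPC-1), of which 99.88%, 99.88% and 99.91% matched a symbol.

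Groups follow the sample titles. Genes were filtered with filterByExpr by group, scaled by TMM and tested with edgeR 4.0.16 (R 4.3.3, limma 3.58.1), robust quasi-likelihood F test, in 1 fit per line, or 1 joint fit of Panc10.05 and BxPC3 for differences between lines, for members tested in both. Benjamini-Hochberg adjusted p-values cover all genes tested, and calls were made at 0.05. A gene could pass the filter through 1 group alone, also the group where it was high. DESeq2 1.42.0 was an alternative, as were other scalings, no filter, a replicate block, guides as groups and leaving out libraries or guides. With guides as groups, p-values measure the spread between libraries of a guide and not that between guides. The fits were tested on simulated data, with changes planted only in genes with many counts and the same spread for every gene. That test does not cover members at low counts. Standard errors are the log2 fold change over the root of F. Libraries of a group differed by 5.53 to 26.9 times counting noise (chi-square per degree of freedom), so none was treated as a repeat. Intervals cover counting error only.

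The 9 genes and the gene lists were chosen with earlier results of these data known. Of the lists, genes with the 3 largest changes per list and comparison and a mean of at least 1 CPM are named, except 1 gene that is not reported here. NR1I2 in Panc10.05 and NR1I3 and CYP1A2 in AsPC-1 were added after their values were seen. Positions come from GENCODE v29 (GRCh38) and promoters from RefSeq (GRCh38.p14). CYP2B7P has 2 identifiers, and the one holding counts was used.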

Additional observations from a re-analysis of the deposited data

Results flagged for a closer look

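Differences between Panc10.05 and BxPC3 drew attention for 4 members, as Panc10.05 minus BxPC3 on the log2 scale in a joint edgeR fit. For P1-a2 against NC they were 1.86 for CYP1A1, -0.900 for CYP2J2, 0.66 for CYP2S1 and -0.75 for CYP3A5. CYP2S1 also differed by 1.33 in the change with P2-a8, and by -0.68 in the contrast of both isoforms. The CYP2J2 and CYP2S1 differences stayed past the threshold in all 11 alternatives run for each. Between the guides of P1 in AsPC-1, sgP1E minus sgP1J was -1.23 for CYP2S1.

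CYP1B1 in AsPC-1 with sgDual had a library apart from the other 3 of its group, sgDual3 replicate 1 at 16.3 CPM, with a gap of 0.864 of the group's range. Chance marks about 1 in 20 groups this way.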

How the results depend on the processing

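No called value of a member changed its sign under any alternative, and the RLE and total-count scalings changed no call followed. The number of members called differed by more than 1.5 times from the main count (in brackets) as follows. In Panc10.05 P1-a2 against P2-a8 (2) it was 1 with DESeq2. For sgP2 against sgP1 (1) it was 2 without the filter, with DESeq2, with the replicate block, with guides as groups and without guide sgP1J, 3 without guide sgP1E and 0 without guide sgP2D. For sgP1 against sgNC (0) it was 1 with guides as groups and without guide sgP1J, and for sgP2 against sgNC (0) 1 with guides as groups. Without guide sgDual3 it was 2 for sgDual against sgNC and 2 against sgP1 (4 each). With the replicate block, the members that differed between guides were 3 for P1 (1), 1 for P2 (0) and 2 for sgDual (0), and between lines 3 for P2-a8 against NC (1).

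Leaving out 1 library each gave 1 to 4 for BxPC3 P1-a2 against P2-a8 (3), 1 to 3 for BxPC3 P2-a8 against NC (4), 2 to 4 for sgDual against sgNC (4) and 1 to 2 between sgP1E and sgP1J (1). Between lines it gave 2 to 5 for P1-a2 against NC (4), 1 to 2 for P1-a2 against P2-a8 (1) and 1 to 2 for P2-a8 against NC (1). Where this left 1 library in a group, that library was assumed to vary like the other groups. The cause was not tested.

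Smaller changes also altered calls. CYP3A5 was lost against NC in Panc10.05 with DESeq2 for both isoforms and without the filter or with the replicate block for P2-a8 (4 to 3), and with sgDual against sgNC without the filter (4 to 3). CYP24A1 was gained without the filter and with the replicate block in BxPC3 against NC for both isoforms (5 to 6 and 4 to 5), and with the block for sgDual against sgNC and sgP1 (4 to 5). For sgDual against sgP2 CYP2S1 was gained with DESeq2 and guides as groups (4 to 5), replaced CYP24A1 in a fit of the 2 groups alone, and CYP24A1 was lost without guide sgP2G (3). For sgDual against sgP1 CYP2S1 was gained with guides as groups, and without guide sgP1J CYP2S1 and CYP27A1 replaced CYP1A1 (4 to 5).

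Over all genes, calls ranged from 1 to 1242 for sgP1 against sgNC (45), 57 to 1905 for sgP2 against sgNC (581), 189 to 2764 for sgP2 against sgP1 (731) and 495 to 2886 for BxPC3 P2-a8 against NC (1232). The lowest counts were 2775 for sgDual against sgNC (6048) and 4320 against sgP1 (6505), and BxPC3 P1-a2 against P2-a8 (3963) ran from 2538 to 5992. Between guides they ran from 53 to 558 for sgDual (150), 1484 to 4616 for P1 (2467) and 135 to 778 for P2 (288).

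Same-numbered libraries did not deviate together in every pair of groups (r over 0.1 in 0 of 3, 2 of 3 and 15 of 21 pairs for Panc10.05, BxPC3 and AsPC-1), so the numbers were not taken as pairs. In AsPC-1, however, r was positive in all 21 pairs (0.0772 to 0.339, median 0.142), as it was in BxPC3 (0.0727 to 0.131). The main tests leave this shared deviation out, and the replicate block includes it. In AsPC-1, CYP2B6, CYP2S1, CYP3A5 and CYP24A1 were higher in replicate 2 than in replicate 1 of every guide. After the alternatives were seen, 66 member values with an unadjusted p of at least 0.05 were set aside from single follow-up. Of their 757 alternative values, 58 had the opposite sign, 0 of these called, and 18 were called. With total-count scaling 3 of 90 group levels moved by more than their SD, CYP3A5 in BxPC3 P2-a8, CYP27A1 in BxPC3 P1-a2 and CYP1B1 in sgNC. Counts were too low for the filter for CYP2B6, CYP3A4 and CYP27A1 in Panc10.05 and for CYP2J2 and CYP3A4 in AsPC-1, and a fit without the filter did not call them.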
